A study of Arabidopsis thaliana with 9 samples.

Results

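The genes described here are those encoded by the plastid genome itself. They were chosen as every transcript cluster (a set of probes for 1 gene or transcript) that is paired with exactly 1 gene whose locus tag begins with ArthCp, the prefix of plastid genes. That gave 63 clusters and 63 genes, of 16722 clusters paired with 1 gene, which cover 16550 genes in all. By function they are 13 genes of photosystem II, 5 of photosystem I, 6 of the cytochrome b6f complex, 4 of the ATP synthase, 1 of Rubisco, 10 of the NDH complex, 13 of the ribosome, 4 of the RNA polymerase and 7 others. A further 13 plastid genes (atpB, atpE, ndhB, psbC, psbD, rpl2, rpl22, rpl23, rps12, rps3, rps7, ycf1 and ycf2) lie only on clusters paired with several genes. They were not analysed here, and 2 more plastid gene symbols are on neither kind of cluster.

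RNA came from detached leaves of Arabidopsis thaliana, accession Col-0, from plants 21 days old, with 10 to 15 leaves in each sample. All leaves spent 48 h in darkness in MS medium. The medium held 10 µM of compound 3, 10 µM of compound 6, or, in the control, 0.05% DMSO, the solvent. Each of the 3 groups had 3 biological replicates, measured on 9 Affymetrix arrays. The labels call both compounds cytokinins, plant hormones known to slow leaf senescence, and give code names only, so no structural difference between them can be named. No leaves from before the 48 h were measured. A gene that rose or fell was therefore higher or lower than in control leaves after the same darkness. A bulk leaf sample also cannot tell fewer cells of a type from less RNA per cell. In the labels' numbering, controls stand apart from treated samples and each compound's samples follow one another, so handling order cannot be told apart from treatment.

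Values are log2 expression values, and n is 3 arrays in each group unless another number is given. They ranged from 0.132 to 13.9, and the arrays' medians over 1-gene clusters from 3.70 to 3.81. Of 12 listed leaf markers only 2 were on 1-gene clusters. RCA, the activase of Rubisco, stood at 9.90 in control leaves and LHCB4.2, a light-harvesting protein, at 8.63. The root-hair gene EXPA7, the only 1 of 5 listed root markers measured, stood at 2.08. None of the listed flower and seed markers was on a 1-gene cluster.

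Plastid genes are read by polymerases of separate descent. One is a bacterial-type enzyme whose core subunits are encoded in the plastid by rpoA, rpoB, rpoC1 and rpoC2, and which transcribes most photosynthesis genes. The other is a phage-type enzyme encoded in the nucleus, which is known to transcribe the operon that begins with rpoB and, with the first, many of the genes for gene expression. Many plastid genes are co-transcribed in operons, and the steady level of their RNA depends strongly on processing and stability. In darkened, ageing leaves the photosynthetic apparatus is dismantled, and cytokinins are known to slow this.

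Most plastid-encoded clusters sat at the top of the array's scale. Of the 50 clusters with the highest mean over the 9 arrays, 19 were plastid-encoded genes, and of the highest 100, 35 were. All 15 clusters paired with 1 gene whose mean reached 13 were plastid-encoded. In all, 43 clusters reached that level, and those that are not plastid-encoded here are unnamed or paired with several genes. Of the 63 genes, 62 stood above the 95th percentile of 1-gene clusters, and the exception, rps16, stood at percentile 93.3. The distance from a gene's control level to the array maximum, which was 13.69 to 13.90 on the 9 arrays, ran from 0.23 for atpH to 6.00 for rps16. The level of a cluster depends on its probes, so levels of different genes are not compared as abundances.

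**Figure D1:**
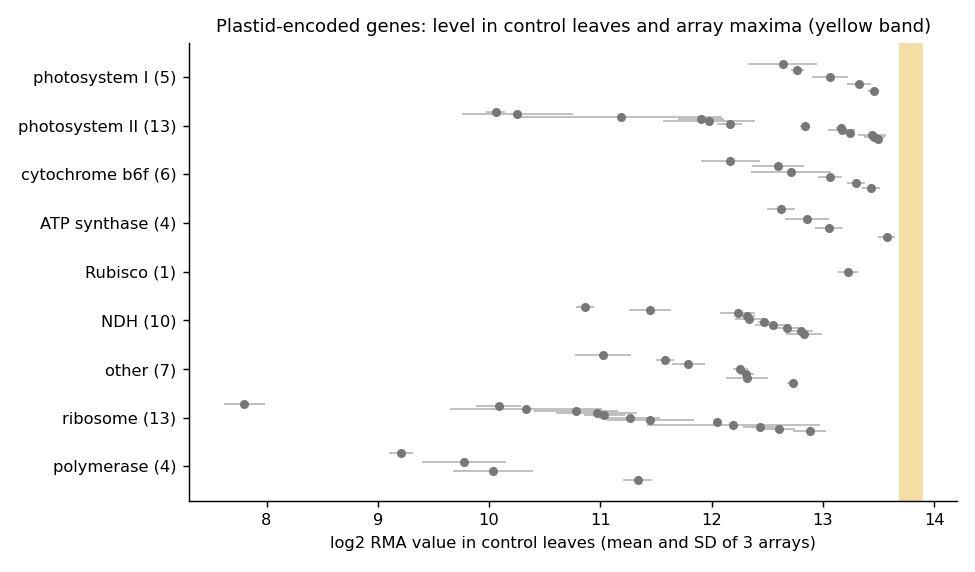
Control level of the 63 plastid-encoded genes by functional group: log2 expression value on the axis, 1 point per gene (mean of 3 control arrays), with its SD as a bar, and the range of the array maxima as a band. Most photosynthesis genes lie above 12, up to 13.57 for atpH, while the 4 polymerase genes lie between 9.21 and 11.34 and the ribosomal genes between 7.80 and 12.88.

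With compound 3, rpoC2 of the polymerase, rps16, grouped with the ribosome, and matK, grouped with the others, rose. No other gene of the 63 passed the test, and none fell. A gene was called at an adjusted p under 0.05 in limma, with the adjustment over all 16722 clusters. The 3 higher calls of 63 stand against 5.60% of all 1-gene clusters called higher with compound 3, a share near the background, and the 0 lower calls against 6.11%. With compound 6 none was called by limma, against 5.62% of all clusters called higher and 4.72% lower. At an unadjusted p under 0.05, 8 of the 63 passed with compound 3 and 5 with compound 6, against 23.1% and 21.0% of all clusters. The count of calls among plastid-encoded genes was thus not above that of other genes.

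The genes leaned upward by a small amount. The median log2 difference from control over the 63 genes was 0.10 with compound 3 and 0.10 with compound 6, while over all 1-gene clusters it was 0.01 and -0.02. It lay above 0 for 48 of the 63 genes with compound 3 and for 52 with compound 6. Over all clusters 51.2% and 47.3% lay above 0. Both comparisons use the same control arrays, so these counts are not independent of each other. Where arrays were instead centred on their median over all transcript clusters, the median over the 63 genes was -0.05 with compound 3 and -0.14 with compound 6. That scaling shifts every cluster of an array by the same amount, and it moved the median of all 1-gene clusters to -0.15 and -0.27. The distance of the 63 genes from that median could therefore not change under it.

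**Figure D2:**
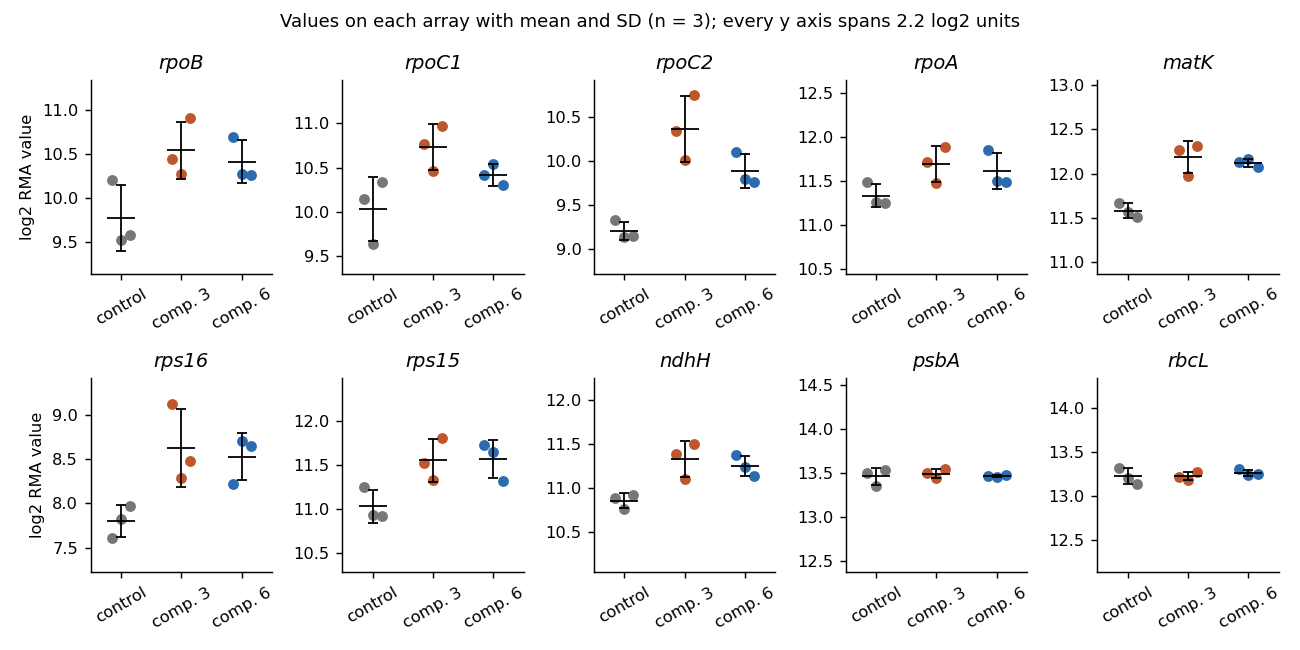
Log2 expression value of polymerase genes and other genes named in the text on each of the 9 arrays, coloured by group (control, compound 3, compound 6), 1 point per array with the group mean and SD as a line and bars. For rpoC2, matK and rps16 every point of either compound lies above every control point, whereas the groups overlap for psbA and rbcL.

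The gene rpoC2 encodes the β'' subunit of the bacterial-type polymerase. Its values were 9.33, 9.14 and 9.15 in control leaves, 10.34, 10.01 and 10.75 with compound 3, and 10.10, 9.79 and 9.76 with compound 6. All treated arrays lay above all control arrays, and the lowest compound 3 array lay below the highest compound 6 array. The difference was 1.16 (SE 0.22, 95% interval 0.69 to 1.62, 2.23-fold, limma adjusted p = 0.00289) with compound 3. With compound 6 it was 0.68 (interval 0.21 to 1.15, limma adjusted p = 0.0663), which did not pass. The rpoC2 call with compound 3 held in all 18 alternative settings, with differences from 0.96 to 1.34.

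The gene rpoC1, which encodes the β' subunit, did not pass the test. Its values were 10.14, 9.63 and 10.33 in control leaves, 10.77, 10.46 and 10.97 with compound 3, and 10.42, 10.54 and 10.30 with compound 6. Every compound 3 array lay above every control array, but 1 compound 6 array fell inside the control range. Its difference was 0.70 (limma adjusted p = 0.0609) with compound 3 and 0.38 (limma adjusted p = 0.381) with compound 6. Without control replicate 3 the compound 3 difference was 0.85 and passed (limma adjusted p = 0.0402). Without control replicate 2 it was 0.50 (limma adjusted p = 0.214). With compound 3, rpoC1 passed in 1 of the 9 fits that leave out 1 array and in 4 of all 18 alternative settings.

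The gene rpoB encodes the β subunit and heads the operon that holds rpoC1 and rpoC2. It read 10.21, 9.53 and 9.58 in control leaves, 10.45, 10.27 and 10.90 with compound 3, and 10.69, 10.28 and 10.27 with compound 6. Treated and control arrays did not overlap, although control replicate 1 stood just below the lowest treated array. The difference was 0.77 (limma adjusted p = 0.057) with compound 3 and 0.64 (limma adjusted p = 0.128) with compound 6. Without control replicate 1 it was 0.98 with compound 3 and passed (limma adjusted p = 0.025). Without compound 3 replicate 3 it was 0.59 (limma adjusted p = 0.201). With compound 3, rpoB passed in 1 of the 9 fits that leave out 1 array and in 3 of all 18 alternative settings.

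The gene rpoA encodes the α subunit from another operon, one it shares with ribosomal protein genes. Its values were 11.49, 11.27 and 11.25 in control leaves, 11.72, 11.47 and 11.89 with compound 3, and 11.85, 11.50 and 11.49 with compound 6. Its groups lay close together, and 1 compound 3 array was below the highest control array. The difference was 0.36 (limma adjusted p = 0.319) with compound 3 and 0.28 (limma adjusted p = 0.499) with compound 6. The 4 polymerase genes thus had a median difference of 0.73 with compound 3 and 0.51 with compound 6. Called higher were 1 of 4 and 0 of 4, against 5.6% and 5.62% of all 1-gene clusters.

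The gene matK encodes a maturase that helps splice plastid introns. It read 11.67, 11.56 and 11.51 in control leaves, 12.26, 11.98 and 12.32 with compound 3, and 12.14, 12.16 and 12.07 with compound 6. The treated arrays all lay above the control arrays and overlapped with each other. It rose by 0.60 with compound 3 (SE 0.18, 1.52-fold, limma adjusted p = 0.0472), while with compound 6 the difference was 0.54 (limma adjusted p = 0.083). The matK call was lost in 8 of the 9 fits that leave out 1 array and in 7 of the other 9 settings. It held without compound 3 replicate 2, without dim clusters and with the prior variance as a trend.

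Of the 13 ribosomal protein genes 1 was called with compound 3 and none with compound 6, and the medians of their differences were 0.42 and 0.33. Over all 1-gene clusters 5.6% and 5.62% were called higher. The gene called among them was rps16, named for protein S16 of the small subunit, and it lies next to matK. Whether it yields a protein was not measured. Its values were 7.60, 7.82 and 7.97 in control leaves, 9.13, 8.29 and 8.48 with compound 3, and 8.22, 8.71 and 8.65 with compound 6. It was the dimmest of the 63, and its treated and control arrays did not overlap. It rose by 0.83 with compound 3 (SE 0.24, 1.78-fold, limma adjusted p = 0.0377), and with compound 6 the difference was 0.73 (limma adjusted p = 0.0764). The rps16 call held in 8 of the 18 alternative settings and was lost in 5 of the 9 fits that leave out 1 array. Without compound 3 replicate 1, its highest array, the difference was 0.58 (limma adjusted p = 0.178).

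Among the other small-subunit genes, rps15 read 11.25, 10.94 and 10.92 in control leaves, 11.52, 11.33 and 11.81 with compound 3, and 11.73, 11.65 and 11.32 with compound 6. No treated array overlapped the control arrays, but neither difference (0.52 and 0.53, limma adjusted p = 0.141 and 0.14) passed. For rps19 the differences were 0.54 with compound 3 and 0.38 with compound 6. For rps2, which stands beside rpoC2, they were 0.44 and 0.38, and for rps18 0.37 and 0.38. The gene rps4 had a control level of 12.44 and differences of 0.15 and 0.11. None of these passed the test.

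The gene rps14 shows how far replicates of 1 group can lie apart. Its control arrays read 12.79, 12.48 and 11.31, its compound 3 arrays 12.49, 12.52 and 12.92, and its compound 6 arrays 12.75, 12.12 and 12.67. The differences of 0.45 and 0.32 come with a control SD of 0.78, and control replicate 3 stands apart within that group. Without that array the differences were 0.0066 and -0.12, the second with compound 6 replicate 2, the lowest of its group, still included.

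The large-subunit genes rpl16, rpl14 and rpl36 lie in the same stretch as rpoA. The rpl16 differences were 0.42 (limma adjusted p = 0.166) with compound 3 and 0.29 with compound 6. For rpl36 they were 0.42 and 0.41, and for rpl14 0.27 and 0.27. These 3 genes had compound 3 arrays all above the control arrays, and none passed the test. With the prior variance as a trend, rpl16 passed with compound 3 (limma adjusted p = 0.028), but this was the only 1 of the 18 alternative settings. For rpl33 the differences were 0.24 and 0.33 at a control SD of 0.68, and without control replicate 3 they were -0.15 and -0.06. The second of these still includes compound 6 replicate 2, at 10.13 the lowest rpl33 value of its group. For rpl20 the differences were -0.04 and 0.09, and for rpl32 0.17 and -0.18.

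The NDH complex passes electrons from ferredoxin to plastoquinone around photosystem I. None of its 10 plastid genes was called in either comparison, and the median difference was 0.10 with each compound. The difference furthest from 0 was that of ndhH, a subunit of the peripheral arm, at 0.47 with compound 3 and 0.39 with compound 6 (limma adjusted p = 0.14 and 0.263). Its control arrays read 10.89, 10.77 and 10.93, its compound 3 arrays 11.39, 11.11 and 11.50, and its compound 6 arrays 11.37, 11.25 and 11.14, with no overlap between treated and control. It neighbours rps15 and had the lowest control level of the 10. With the prior variance as a trend it passed with compound 3 (limma adjusted p = 0.0417), but this was the only 1 of the 18 alternative settings.

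Of the membrane-arm subunits, ndhF had a control level of 11.45 and differences of 0.32 with compound 3 and 0.24 with compound 6. For ndhA, ndhC, ndhD, ndhE and ndhG the control levels lay between 12.32 and 12.83. Their compound 3 differences were 0.09, 0.12, 0.08, 0.05 and -0.03, and their compound 6 differences 0.10, 0.10, 0.05, 0.06 and 0.06. For the peripheral subunits ndhI, ndhJ and ndhK the differences were 0.14, 0.11 and 0.07 with compound 3 and 0.12, 0.10 and 0.11 with compound 6.

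None of the 29 genes of the photosystems, the cytochrome b6f complex, the ATP synthase and Rubisco was called by limma in either comparison. Over all 1-gene clusters 11.7% and 10.3% were called in either direction. The 29 genes had a median difference of 0.01 with compound 3 and 0.03 with compound 6, and their lowest limma adjusted p was 0.397 and 0.683. They include the genes nearest the array maximum and have a median control level of 13.05. Small differences at that level do not show that the transcripts were unchanged. Level and function run together in these genes and cannot be told apart. Differences were also small for some genes far from the maximum, such as psbM at 10.26 (-0.03 and -0.08). Without control replicate 3, however, the psbM differences were -0.31 and -0.37, the second with a low compound 6 array (9.67) still included.

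In photosystem II, which splits water, psbA encodes the D1 protein of the reaction centre. It read 13.50, 13.35 and 13.53 in control leaves, 13.49, 13.44 and 13.54 with compound 3, and 13.46, 13.46 and 13.48 with compound 6. The 3 groups overlapped fully, and the 95% intervals were -0.35 to 0.41 with compound 3 and -0.37 to 0.38 with compound 6. The core antenna gene psbB stood at 13.50 with differences of 0.00 and 0.04. The genes psbE and psbF, for the subunits of cytochrome b559, had differences of -0.05 and -0.01 with compound 3 and -0.07 and 0.05 with compound 6.

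The small-subunit genes psbH, psbI and psbK stood at 13.17, 12.84 and 13.16 in control leaves. Their differences were -0.05, -0.03 and -0.04 with compound 3 and -0.08, 0.04 and 0.00 with compound 6. The dimmer psbJ, psbL and psbZ stood at 11.91, 12.16 and 11.98, with differences of 0.16, 0.05 and 0.21 with compound 3 and 0.16, 0.06 and 0.22 with compound 6. For psbZ they were -0.01 and -0.01 without control replicate 3.

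The remaining 3, psbM, psbN and psbT, were the dimmest of photosystem II, at 10.26, 11.19 and 10.06 in control leaves. They were also among the most variable. The gene psbN, named with the photosystem and known to act in its assembly, read 11.79, 11.63 and 10.14 in control leaves, 11.34, 10.99 and 11.17 with compound 3, and 11.89, 10.40 and 11.76 with compound 6. Control replicate 3 and compound 6 replicate 2 lay more than 1 unit below the other arrays of their groups, and the differences were -0.02 and 0.17. Without control replicate 3 they were -0.54 and -0.36, the second with the low compound 6 replicate 2 still included. The gene psbN lies on the strand opposite psbT and psbH, and whether the probes tell the strands apart was not tested. For psbT the arrays read 9.99, 10.04 and 10.15 in control leaves, 10.39, 9.67 and 11.10 with compound 3, and 9.91, 9.68 and 10.02 with compound 6. Its differences were 0.33 and -0.19, within the spread of its compound 3 arrays (SD 0.72). For psbM they were -0.03 and -0.08, and without control replicate 3 they were -0.31 and -0.37. The second of these still includes compound 6 replicate 2, at 9.67 the lowest psbM value of its group.

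In photosystem I, the reaction-centre genes psaA and psaB stood at 13.32 and 13.46 in control leaves. Their differences were 0.02 and 0.03 with compound 3 and 0.01 and 0.06 with compound 6. The gene psaC, for the iron-sulphur subunit that hands on the electrons, stood at 12.77, with differences of 0.12 and 0.12. The small subunits psaI and psaJ had differences of -0.04 and 0.04 with compound 3 and -0.10 and -0.10 with compound 6.

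In the cytochrome b6f complex, which links the photosystems, petA for cytochrome f stood furthest from the maximum, at 12.17. Its differences were 0.32 (limma adjusted p = 0.397) with compound 3 and 0.20 with compound 6. The genes petB for cytochrome b6 and petD for subunit IV stood at 13.30 and 13.06. Their differences were 0.01 and 0.04 with compound 3 and 0.03 and -0.02 with compound 6. The small subunits petG, petL and petN had differences of -0.09, 0.01 and 0.11 with compound 3 and 0.00, -0.09 and 0.14 with compound 6.

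In the ATP synthase, atpA for the catalytic head's α subunit stood at 12.86, with differences of 0.10 and 0.15. The membrane-part genes atpF, atpH and atpI stood at 13.05, 13.57 and 12.63. Their differences were -0.02, -0.03 and 0.10 with compound 3 and -0.03, 0.02 and 0.10 with compound 6. The gene rbcL, for the large subunit of the carbon-fixing enzyme Rubisco, read 13.32, 13.21 and 13.14 in control leaves, 13.21, 13.19 and 13.27 with compound 3, and 13.30, 13.23 and 13.25 with compound 6. The groups overlapped, and the differences were 0.00 and 0.04 (limma adjusted p = 0.998 and 0.945).

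Of the other genes, accD, for a subunit of acetyl-CoA carboxylase in fatty acid synthesis, stood at 12.26, with differences of -0.04 and 0.05. The protease gene clpP stood at 12.31, with differences of 0.14 and 0.10. The genes ycf3 and ycf4, whose products help assemble photosystem I, stood at 12.73 and 12.32. Their differences were -0.03 and 0.18 with compound 3 and 0.02 and 0.11 with compound 6. The envelope protein gene cemA and the cytochrome assembly gene ccsA stood at 11.79 and 11.02, with differences of 0.18 and 0.03 with compound 3 and 0.14 and 0.12 with compound 6. None of these 6 was called.

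The size of a difference went with the level. The 11 genes with a control level of 7 to 11 had a median difference of 0.47 with compound 3 and 0.38 with compound 6. For the 11 genes at 11 to 12 the medians were 0.21 and 0.22, and for the 26 genes at 12 to 13 they were 0.10 and 0.10. The 15 genes at 13 to 14 had a median of -0.01 with compound 3, with a range from -0.09 to 0.04, and of 0.00 with compound 6, with a range from -0.10 to 0.06. The spread within groups shrank in the same order, with median pooled SDs of 0.32, 0.22, 0.15 and 0.07. The brightest genes thus differed little between any of the arrays, replicates included.

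Over the 63 genes, Spearman's rho of the difference with the control level was -0.74 with compound 3 and -0.65 with compound 6. The control arrays enter both sides of that relation. With the level taken from the arrays outside each comparison, rho was -0.68 and -0.58. The pooled SD had a rho of -0.80 with the control level. The rho of the difference with gene length was 0.25 and 0.28. These describe 63 genes that share the same 9 arrays and are given without a test.

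**Figure D3:**
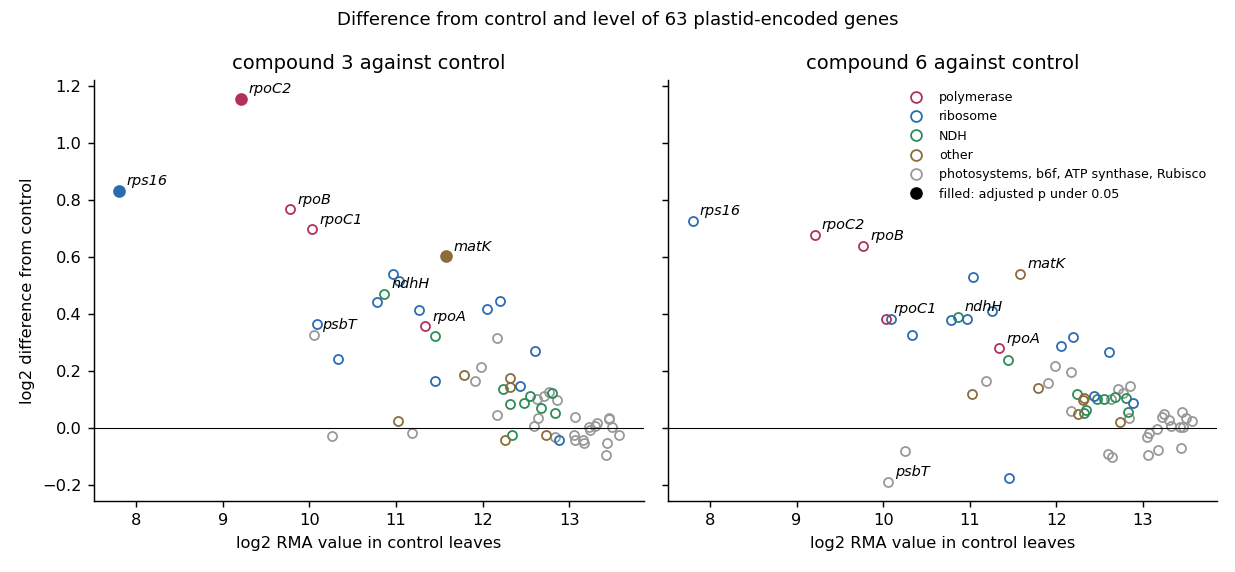
Log2 difference from control (vertical axis) against control log2 level (horizontal axis) for the 63 plastid-encoded genes, 1 panel for each compound, with points coloured by functional group. Differences spread from -0.19 up to 1.16 below a level of 13 and stay between -0.10 and 0.06 for the 15 genes at or above it.

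In the gene order of the RefSeq table, some of the genes with larger differences lie side by side. These stretches were picked after their values were seen. One is matK and rps16, with compound 3 differences of 0.60 and 0.83. Another is rps2, rpoC2, rpoC1 and rpoB, with 0.44, 1.16, 0.70 and 0.77. On the rps2 side follow atpI, atpH, atpF and atpA, with 0.10, -0.03, -0.02 and 0.10. A further stretch runs from rpoA (0.36) through rpl36, rpl14 and rpl16 to rps19 (0.54), and the last holds ndhH and rps15. Not every gene of a stretch stands out, since rpl14 is at 0.27. Other genes stand above their neighbours alone, such as rps14 (0.45, between psbZ at 0.21 and psaB at 0.03) and rps18 (0.37, between rpl33 at 0.24 and rpl20 at -0.04). For psbT (0.33) the neighbours are psbB at 0.00 and psbN at -0.02. Without control replicate 3, rps14 was at 0.0066, psbZ at -0.01 and psaB at 0.05, so rps14 no longer stood above both neighbours. In that fit rps18 was at 0.28, rpl33 at -0.15 and rpl20 at -0.09. Which of these neighbours are co-transcribed was not measured. Those that are share RNA molecules, so such genes are not separate observations. Only rpoC2, rps16 and matK of those named passed the test, and neighbourhood itself was not tested.

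**Figure D4:**
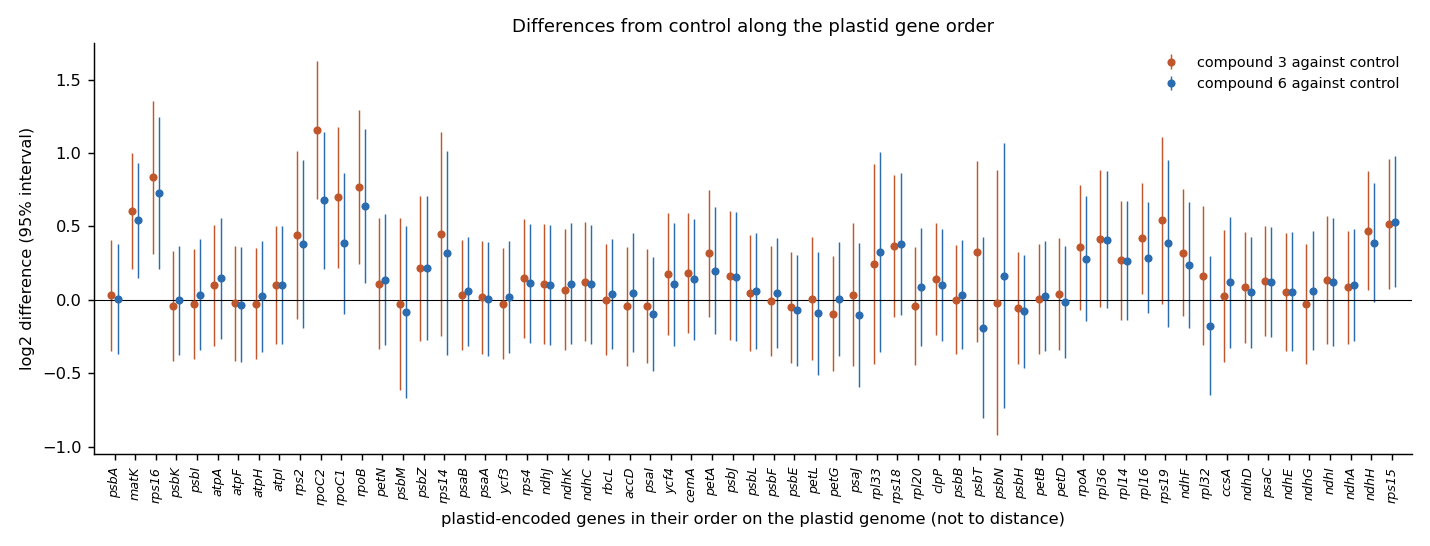
Log2 difference from control for the 63 plastid-encoded genes in their order along the plastid genome (position in order on the horizontal axis, not distance), with compound 3 and compound 6 as separate points. The stretch rps2 to rpoB and the pair matK and rps16 stand above the neighbouring photosynthesis genes for both compounds, while rps14 and rps18 stand up outside these stretches. Without control replicate 3 the compound 3 difference of rps14 was 0.0066.

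Of the 63 genes, 10 had all compound 3 arrays above all control arrays (matK, rps16, rpoC2, rpoC1, rpoB, rpl36, rpl14, rpl16, ndhH and rps15), and 0 had them all below. Over all 1-gene clusters 12.9% lay wholly above and 13.4% wholly below. With compound 6, 11 lay wholly above (psbB, matK, rps16, rpoC2, rpoB, rpoA, rpl14, rpl16, psaC, ndhH and rps15) and 0 below, against 11.9% and 12.7% of all clusters. The counts above and below were not tested against these shares. The psbB and psaC differences in that list were 0.04 and 0.12.

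The compounds were compared directly at the same dose and time, over 63 genes with p adjusted over all 16722 clusters. None of the 63 was called by limma, against 0.299% of all clusters (0.215% higher and 0.0837% lower with compound 6), and 1 had an unadjusted p under 0.05, against 10.1% of all clusters. That 1 was rpoC2, lower with compound 6 than with compound 3 (log2 difference -0.48, 95% interval -0.95 to -0.01, limma adjusted p = 0.48). For rpoC1 the difference was -0.31 (interval -0.80 to 0.17), for rpoB -0.13 (-0.65 to 0.39), for matK -0.06 (-0.46 to 0.33) and for rps16 -0.11 (-0.63 to 0.41). For rpl32 all compound 6 arrays lay below all compound 3 arrays, with a difference of -0.34 (-0.82 to 0.13), the only gene of the 63 that did so against 7.84% of all clusters. None of the 63 lay wholly above, against 8.13%. Intervals over the 63 genes reached from -1.13 for psbT to 1.09 for psbN. The arrays therefore do not show that the compounds act alike on these genes, nor that they differ.

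Some arrays moved many of the genes together. Control replicate 3 held the lowest of the 9 values for 27 of the 63 genes, and control replicate 2 for 15. Compound 3 replicate 3 held the highest for 36. Within its group, compound 3 replicate 2 was lowest for 52 genes and replicate 3 highest for 49, with median deviations from the group mean of -0.13 and 0.13. These deviations are as large as the median difference from control of 0.10. The deviations of control replicate 3 and compound 6 replicate 2 went together over the 63 genes (Spearman's rho 0.73) and over all 1-gene clusters (r = 0.51). Without both arrays, 2 of the 63 genes were called with compound 3, rpoC1 and rpoC2, and none with compound 6. Fitting without these arrays was chosen after the data had been seen.

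Nuclear genes for parts of the same complexes were set beside the plastid ones, and most of those listed are not on 1-gene clusters. Over all 1-gene clusters 5.6% were called higher with compound 3 and 5.62% with compound 6. Of 33 nuclear photosynthesis subunits 6 were measured. With compound 3, 4 rose, and with compound 6, 5 rose. They were PSB27, a photosystem II assembly protein (1.29 and 1.14), PSAN of photosystem I (0.85 and 0.89) and ATPC1, the γ subunit of the ATP synthase (0.71 and 0.91). PSAE-1 rose with compound 3 alone (0.78, and 0.67 with compound 6), and PSBY and PSBW, small photosystem II subunits, with compound 6 alone (0.98 and 0.88, and 0.73 and 0.82 with compound 3). Passing with 1 compound and not the other is no test of a difference between them. Their control levels were 7.58 to 10.18, well below the array maximum. The leaf markers RCA (0.93 and 1.13) and LHCB4.2 (0.71 and 0.86) also rose with both compounds. Of the 9 fits that leave out 1 array, PSAE-1 kept its compound 3 call in 2, PSAN in 6 and ATPC1 in 5. PSBW kept its compound 6 call in 2, PSBY in 7 and PSAN in 7. LHCB4.2 kept its call in 1 with compound 3 and in 5 with compound 6. PSB27 kept its call in 9 and 7, and RCA in all 9 with each compound.

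Of 18 nuclear NDH genes, 3 were measured and all 3 rose with both compounds, against 5.6% and 5.62% of all 1-gene clusters called higher. AT1G70760, for subunit NdhL, stood at 4.38 in control leaves and rose by 2.95 with compound 3 and by 2.82 with compound 6. AT5G58260, for NdhN, rose by 1.35 and 1.32, and AT5G21430, for NdhU, by 1.42 and 1.54. Their control levels were 3.04 to 4.38, whereas the plastid NDH genes lay at 10.86 to 12.83. NdhN and NdhU, at 3.54 and 3.04, lay below the arrays' medians. Signal over background was not measured, so the size of their differences is approximate. All 3 kept both calls in all 9 fits that leave out 1 array.

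Of 30 nuclear genes for plastid ribosomal proteins, 7 were measured, of which 3 rose with compound 3 and 1 with compound 6. The shares of all 1-gene clusters called higher were 5.6% and 5.62%. AT4G01310 rose by 1.80 and 1.72. AT5G47190 rose by 1.15 with compound 3, and its compound 6 difference was 0.73 (limma adjusted p = 0.0958). AT5G65220 rose by 0.70 with compound 3, a call kept in 2 of the 9 fits that leave out 1 array, and its compound 6 difference was 0.41. Of 22 listed nuclear genes for plastid transcription, 21 for RNA processing and 9 for the Clp protease, 1, 1 and 2 were measured, and none was called. The transcription gene was AT5G15700, a phage-type polymerase (-0.11 and 0.22). It does not stand for the listed transcription genes that were not measured. The RNA processing gene was LPA66 (0.48 and 0.52). The Clp genes were CLPP4 (-0.27 and -0.36) and AT1G09130 (-0.40 and -0.34). None of 4 acetyl-CoA carboxylase genes was measured.

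Mitochondrion-encoded genes gave a second organelle for comparison. On 21 clusters for 12 genes, with control levels of 5.04 to 12.73, none was called with either compound, and the median differences were 0.13 and 0.01. Taking each gene's brightest cluster, the differences furthest from 0 were those of nad6 (0.32) and cox2 (0.28) with compound 3 and of matR (-0.13) and cox2 (-0.13) with compound 6. The differences between the plastid, nuclear and mitochondrial lists were not tested, and plastid and nuclear clusters lie at different distances from the array maximum.

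**Figure D5:**
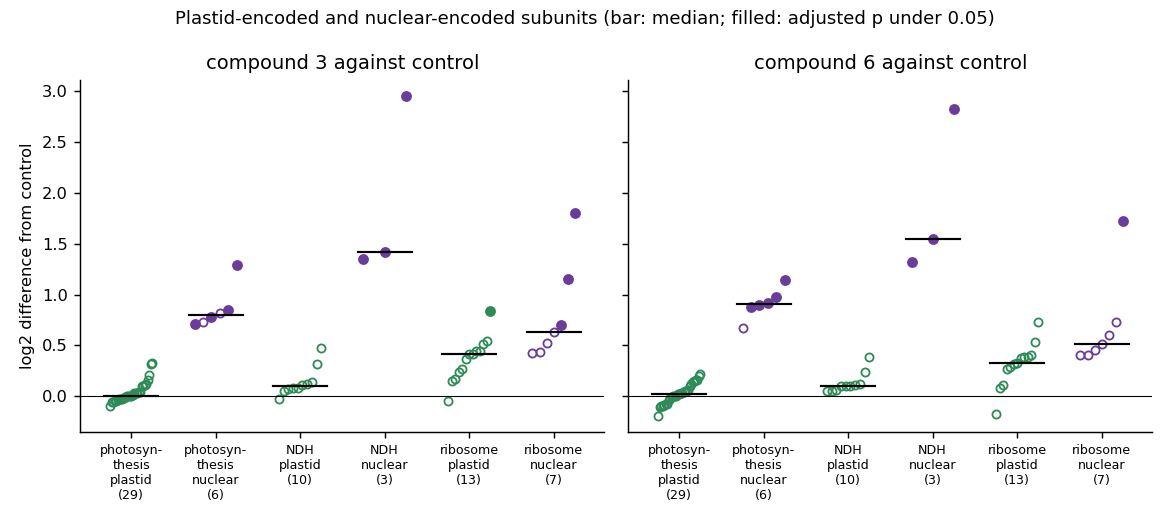
Log2 difference from control for plastid-encoded and nuclear-encoded genes of photosynthesis, the NDH complex and the ribosome, 1 point per gene, with the compounds as separate points. The 6 nuclear photosynthesis genes lie between 0.67 and 1.29 and the 3 nuclear NDH genes between 1.32 and 2.95, while the 29 plastid photosynthesis genes lie between -0.19 and 0.33.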

How the data were processed

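The deposited values are log2 expression values, 1 for each of 38408 transcript clusters and 9 arrays. The authors named RMA, oligo and limma, per the submitters' processing notes, without versions. No base of the logarithm is stated, and log2 was taken from the range of the values. A genome build was not found in the labels or the file. Clusters were named through the platform's gene table and RefSeq's gene table (assembly TAIR10.1), used for names and gene order only. No probe, gene or protein sequence was used here. Whether probes also match plastid DNA copies in the nucleus or mitochondria was not tested.

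All 16722 clusters paired with 1 gene were fitted with limma 3.58.1 (lmFit and eBayes, R 4.3.3) in 1 model of 3 groups, with 6 residual degrees of freedom and no filter. Calls had a two-sided Benjamini-Hochberg adjusted p under 0.05. For 1 gene, an exact permutation test at this group size cannot go below p = 0.1. The code was tested on simulated data. Errors are SDs over 3 arrays, SE is limma's moderated standard error, and intervals are 95%. Arrays have no read depth, so their number limits the precision. Raw intensities and saturation marks were not used here.

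The members and lists were chosen with earlier results of these data known. All 63 genes are named. Of the other lists, up to 4 called genes per comparison are named or, where none was called, up to 2. Mitochondrial genes were identified by symbols of RefSeq mitochondrial genes that no plastid gene shares, chosen after the gene tables were seen, because the tag prefix first intended is not in the table. Deviations of arrays with the same replicate number had r from -0.37 to 0.26 over 9 pairs, against -0.32 to 0.51 for other pairs. The reported fit did not pair samples by number, and whether samples of 1 number were handled together is not known. No 2 arrays held identical values. Python 3.11.15 and matplotlib 3.10.9 drew the figures.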

Additional observations from a re-analysis of the deposited data

How the results depend on the processing

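The number of plastid-encoded genes called with compound 3, 3 in the reported fit, was 1 with all transcript clusters tested, with arrays centred over all clusters, with only the 2 groups compared and with the replicate block. It was 5 without dim clusters (mean under 4) and 7 with the prior variance as a trend, which added rpoB, rpoC1, ndhH and rpl16. With compound 6, 0 in the reported fit, it was 3 without dim clusters and 4 with the trend, and 0 with the block. Leaving out each array in turn gave 1 to 3 with compound 3 and 0 to 1 with compound 6. The single compound 6 call was rpoC2 or rps16, and arose without compound 3 replicate 3 or 1. Between the compounds it was 0 throughout. The median difference over the 63 genes was -0.054 with compound 3 and -0.14 with compound 6 under centring over all clusters, and 0.02 to 0.15 and 0.04 to 0.16 without 1 array. Centring over all clusters split the calls over all 1-gene clusters into 591 higher and 1424 lower with compound 3 (936 and 1021 as reported) and 551 and 1569 with compound 6 (939 and 789). Normalizing by quantiles again gave 800 and 1278, and 731 and 1147. Over all clusters tested, 3360 and 3144 were called in place of 1957 and 1728. Without control replicate 3 and compound 6 replicate 2, an alternative chosen after seeing the data, 998 were called with compound 6. Between the compounds 50 were called, against 3 with all clusters tested, 92 without dim clusters, 29 with the block, 25 without those 2 arrays and 20 to 112 without 1 array, with 112 without control replicate 3. Without 1 array, 1319 to 1919 were called with compound 3 and 1227 to 1668 with compound 6. No called plastid-encoded gene changed sign in any setting. Of the 63, 40 with compound 3 and 45 with compound 6 changed sign in some setting, none of them called in the reported fit. Leaving aside centring over all clusters, which shifts all genes together and leaves 24 and 16 of the 63 above 0, in place of 48 and 52, the numbers were 32 and 24. The causes were not tested, except that leaving out arrays removes samples and testing all clusters adds features. Many photosynthesis genes lay near the array maximum, and whether that kept their differences small was not tested. Their small differences therefore do not show that the transcripts were unchanged.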
